A study of Mus musculus with 6 samples.

Results

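Genes of glutathione metabolism and antioxidant defence were examined in alveolar type II cells, the lung epithelial cells that make and secrete surfactant, after deletion of Stat3. The genes were taken by symbol, as the glutathione transferases (Gst and Mgst), glutathione peroxidases (Gpx), peroxiredoxins (Prdx), superoxide dismutases (Sod) and thioredoxin-named genes (Txn), together with Cat, Gclc, Gclm, Gss, Gsr, Nqo1 and Srxn1. Probe sets that name 1 of these genes alone were kept. They number 119 of the 45037 probe sets tested, and name 63 of the 18193 genes that the array annotation names alone. A further 6 probe sets name such a gene together with others and were left out. The signal was above 69.9, the value added before taking logs, on at least 3 arrays for 114 of the 119 probe sets.

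The Stat3Δ/Δ group consisted of mice that carry SP-C-rtTA and (tetO)7CMV-Cre on a Stat3flx/flx background, in which Cre is switched on by doxycycline in cells that use the surfactant protein C promoter and removes an exon of Stat3. The control group consisted of littermates that the labels call double transgenic for SP-C-rtTA and (tetO)7CMV-Cre; the study's methods describe them as Stat3flx/flx mice carrying either the SP-C-rtTA or the tetO7CMV-Cre transgene. The dams of both groups were given doxycycline in the food, and all mice were 8 weeks old. Each RNA came from the type II cells of 3 mice together, giving 3 Stat3Δ/Δ pools and 3 control pools, and each pool was hybridized to its own MOE430 array. Cells were isolated with collagenase and differential plating, and alveolar macrophages are named by the study as the main remaining other cell. The study assessed purity with a stain, and reports no difference between the groups in the purity or number of type II cells.

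Glutathione is a tripeptide of glutamate, cysteine and glycine that cells hold in large amounts as a reducing agent. It is joined to reactive compounds by glutathione transferases and is oxidized by glutathione peroxidases as they reduce peroxides, while thioredoxin and peroxiredoxins form a parallel system, and both systems draw on NADPH. Many of these genes are induced by the transcription factor NRF2, encoded by Nfe2l2, which binds antioxidant response elements, and the lung epithelium, exposed to inhaled oxygen, is known for a high antioxidant capacity.

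Values are given as log2(signal + 69.9) after quantile normalization, where 69.9 is the 20th percentile of all signals. Fold changes are those of Stat3Δ/Δ over control on this scale, where the changes of dim genes come out too small. The number of arrays limits the precision, and p-values measure the spread between these pools. Median signals were 337.8 to 381.3 on the Stat3Δ/Δ arrays and 282.8 to 360.7 on the control arrays. Of 4 probe sets for Stat3 itself, 2 lay below every control array on all Stat3Δ/Δ arrays, with log2 fold changes of -0.71 and -0.80 (limma adjusted p = 0.532 and 0.502), and the others gave -0.046 and 0.60. Which part of the transcript each of them reads was not analysed here. The study cites earlier work that found Stat3 mRNA and protein strongly lowered in type II cells of these mice. As a sign of RNA integrity, control probes at the 3' end of a transcript were set against those at its 5' end, and their log2 ratio was 0.39 ± 0.046 in Stat3Δ/Δ cells and 0.64 ± 0.17 in control cells for Actb, and -0.41 ± 0.099 in Stat3Δ/Δ cells and 0.020 ± 0.26 in control cells for Gapdh (SD, n = 3 each). An exact permutation test (two-sided) gave p = 0.1 for each of them, the lowest p it can reach with 3 pools a group. Sample titles carry a leading number, the meaning of which no source used here gives, and 3 arrays have it in common: control pool 3 with Stat3Δ/Δ pools 1 and 2. Fold changes within those 3 arrays are given below as values within the shared number. Control pools 1 and 2 have a different number in common, and that of Stat3Δ/Δ pool 3 is on no other array. Over all arrays the number is thus partly confounded with the group.

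No glutathione or antioxidant probe set was called in limma with the FDR held to 10%, p to 0.05 and the fold at 1.5 or more, a rule that 1 probe set of the whole array met (0.00222%). At an unadjusted p of at most 0.05 there were 8. Of these, 3 were the brightest probe set of their gene (3 of 63), beside 1420 of 18193 over all genes. The other 5 were dimmer ones (5 of 56), beside 1558 of 16752 dimmer probe sets of all genes. Without the FDR, 7 of the 119 probe sets were lower in Stat3Δ/Δ cells, beside 4.22% of all probe sets, and 1 was higher, beside 4.14% of all. This rule is wider than the one in the study's methods, where the FDR was set aside for mRNAs that changed in several probe sets. The 7 were for Gpx2, Gsta2, Gsta3, Gstm1, Sod1, Txnip and Txnl1, and the 1 was for Txnrd1. No gene had more than 1 probe set in these counts, so that narrower rule would admit none of them. The count of lower probe sets was 4 without Stat3Δ/Δ pool 2 and 16 without Stat3Δ/Δ pool 3, and that of higher probe sets was 3 without control pool 3 and 2 with any one Stat3Δ/Δ pool left out. On every Stat3Δ/Δ array, 13 probe sets (10.9%, beside 7.66% of all) lay below all control arrays and 3 (2.52%, beside 5.99% of all) lay above them.

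Taken gene by gene, each by its brightest probe set, 50 of the 63 genes had a log2 fold change below 0 (79.4%, beside 59.3% of all genes), with a median of -0.16, beside -0.085 over all genes. The genes ranged between -1.18 for Gpx2, a glutathione peroxidase of epithelia, and 0.48 for Gstcd, a gene named for a domain it shares with glutathione transferases. On single arrays, the median over the 63 genes, set against each gene's control mean, was -0.30, -0.24 and -0.0049 in Stat3Δ/Δ pools 1 to 3, and 0.17, -0.020 and -0.14 in control pools 1 to 3. Stat3Δ/Δ pool 3 thus lay between control pools 2 and 1, and the other two Stat3Δ/Δ pools below every control pool. The median fold change was -0.31 without Stat3Δ/Δ pool 3, -0.32 when control pool 3 was left out, -0.10 without Stat3Δ/Δ pool 1 and -0.063 when control pool 1 was left out. It was -0.20 within the shared number, and -0.35, beside -0.18 over all genes, with arrays centred on their medians in place of quantile normalization. Over the other 56 probe sets of these genes, which are dimmer, 4 were lower without the FDR (beside 3.4% of the dimmer probe sets of all genes) and 1 was higher (beside 5.82%). Their median was -0.042 with 32 below 0, beside 0.035 over the dimmer probe sets of all genes (46.3% below 0).

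**Figure D1:**
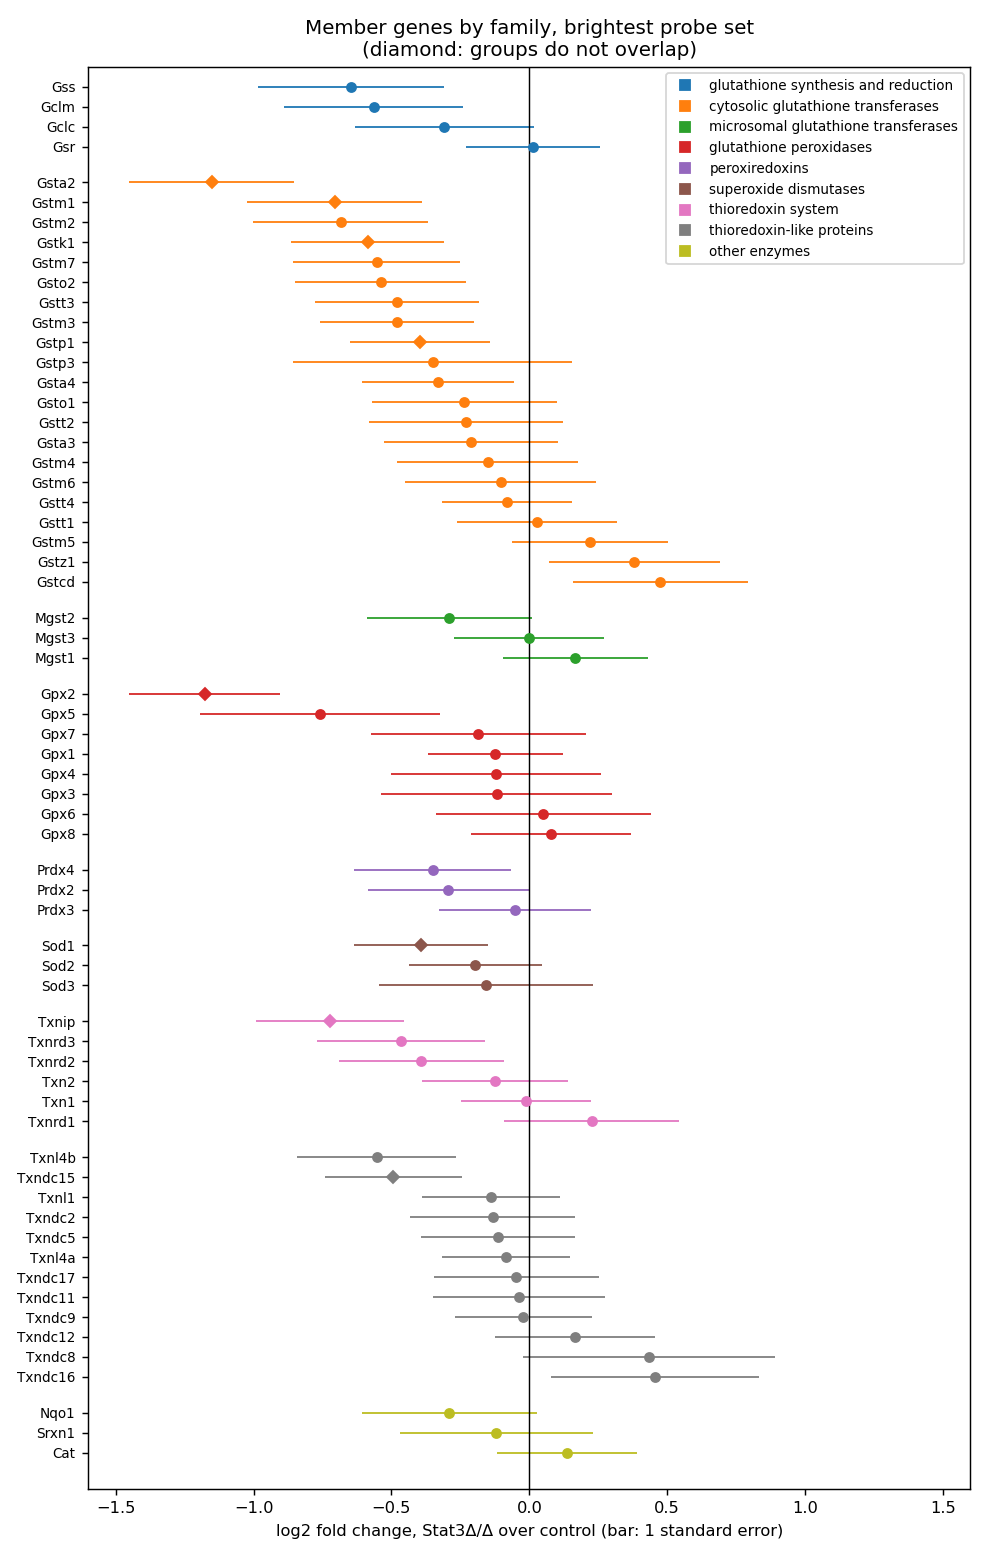
Log2 fold change of Stat3Δ/Δ over control (horizontal axis) for each of the 63 genes by its brightest probe set, grouped by family; bars are 1 standard error and diamonds mark genes whose 3 Stat3Δ/Δ and 3 control arrays do not overlap. Of the 63 points, 50 lie left of 0, Gpx2 (-1.18) and Gsta2 (-1.15) lie farthest left, and all 8 diamonds are on the left. Overlap was judged after quantile normalization.

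By brightest probe set, 3 genes were lower without the FDR (4.76%, beside 5.54% of all genes) and none was higher (beside 2.15% of all). The 3 were Gpx2, Gsta2 and Txnip. In 8 genes (12.7%, beside 10.2% of all genes) every Stat3Δ/Δ array lay below every control array after normalization, namely these 3 with Gstm1, Gstk1, Txndc15, Sod1 and Gstp1. In the deposited signals the groups overlapped for Gstk1 and Gstp1. No gene lay above without overlap, beside 4.23% of all genes. In bulk RNA, fewer cells of a type and less RNA per cell cannot be told apart.

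Because many of these genes are known to share NRF2 as a regulator, and because Stat3 was deleted, their promoters were read for the core of the antioxidant response element, TGACNNNGC, and for the palindrome bound by STAT proteins, TTCNNNGAA, on both strands. Promoters were taken from RefSeq (GRCm38.p6) as 250 bases before to 50 bases after each start, and 56 of the 63 genes, with 75 promoters, were matched. The antioxidant core was found in 11 of the 75 promoters (14.7%), beside 12.4% of all 32851 promoters, and the STAT palindrome in 8 (10.7%), beside 8.30% of all. The windows below are printed 5′ to 3′ on the gene's strand with the match in capitals. The first set shows the antioxidant core in an enzyme of glutathione synthesis, a pair of glutathione transferases, a superoxide dismutase, sulfiredoxin and thioredoxin reductase. In Gclm, Sod1, Srxn1 and Txnrd1 the core stands in the opposite orientation, so that the capitals are its reverse complement. None of the matches to the core holds TGACTCA, the site of AP-1.
Gclm (chr3:122245413-122245441, + strand): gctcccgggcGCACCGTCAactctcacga
Gsta3 (chr1:21240454-21240482, + strand): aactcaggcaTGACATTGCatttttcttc
Gstm7 (chr3:107931725-107931753, - strand): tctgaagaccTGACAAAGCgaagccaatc
Sod1 (chr16:90220696-90220724, + strand): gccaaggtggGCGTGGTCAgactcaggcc
Srxn1 (chr2:152105542-152105570, + strand): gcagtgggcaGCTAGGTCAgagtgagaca
Txnrd1 (chr10:82859104-82859132, + strand): ctggatttttGCTTTGTCAttctgacacg

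The second set shows the STAT palindrome in the mitochondrial superoxide dismutase, a microsomal glutathione transferase and, at 2 of its starts, thioredoxin reductase.
Sod2 (chr17:13007644-13007672, + strand): tctccagggtTTCCCAGAAgcaggagtag
Mgst1 (chr6:138141607-138141635, + strand): caggagaagcTTCCAGGAAatgagaaaac
Txnrd1, upstream start (chr10:82858966-82858994, + strand): gttcccaacaTTCTTTGAAtagcagccgc
Txnrd1, downstream start (chr10:82860258-82860286, + strand): cggtttcagaTTCCAGGAAgccctgggtg
The 11 genes with an antioxidant core had a median log2 fold change of -0.12, with 8 below 0, and the 45 matched genes without one had -0.20, with 36 below 0. The 7 genes with a STAT palindrome had a median of -0.10, with 4 below 0, and the 49 without one had -0.21, with 40 below 0. The windows of Gpx2, Gsta2, Gstm1 and Txnip hold neither set of letters. These shares were not tested, and a match is no evidence of binding.

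Glutathione is made from cysteine by glutamate-cysteine ligase, of catalytic subunit Gclc and modifier subunit Gclm, and by glutathione synthetase, Gss, and its oxidized form is reduced again by glutathione reductase, Gsr. Of these 4 genes 3 had a log2 fold change below 0, with a median of -0.44, and between -0.53 and -0.19 with any single pool left out. None passed the test or separated the groups. Gss had a log2 signal of 10.39, 10.68 and 11.06 in Stat3Δ/Δ pools 1 to 3 and 11.88, 11.33 and 10.84 in control pools 1 to 3, a fold change of -0.65 (SE, the standard error, 0.34, limma adjusted p = 0.654). Only Stat3Δ/Δ pool 3 reached the control range, above control pool 3. Within the shared number Gss gave -0.31.

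Gclm had 11.95, 11.53 and 11.12 in Stat3Δ/Δ cells, against 12.39, 11.64 and 12.25 in control cells, and a log2 fold change of -0.57 (SE 0.32, limma adjusted p = 0.685), and its dimmer probe set gave 0.47. Gclc had 15.57, 15.15 and 14.52 in Stat3Δ/Δ cells, against 15.31, 15.21 and 15.64 in control cells, with a log2 fold change of -0.31 (SE 0.32). The groups overlapped for both, and for Gclc and Gclm it was Stat3Δ/Δ pool 3 that was lowest of all 6 arrays. For Gss and for most cytosolic transferases, by contrast, that pool was the highest of the Stat3Δ/Δ arrays. Gsr had 12.04, 12.16 and 11.92 in Stat3Δ/Δ cells, against 11.87, 12.23 and 11.98 in control cells, and a log2 fold change of 0.014, or -0.13 with arrays centred on their medians in place of quantile normalization.

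The cytosolic glutathione transferases, which join glutathione to reactive and foreign compounds, were the largest family, with 21 genes, among which Gstk1 and Gstcd are counted. Of these, 17 had a log2 fold change below 0, with a median of -0.33. Without the FDR 1 was lower (4.76%, beside 5.54% of all genes), and 4 separated the groups, all of them downward (19.0%, beside 10.2% of all genes). The median was between -0.49 and -0.18 with any single pool left out and was -0.35 within the shared number. On single arrays it was -0.64, -0.42 and 0.059 in Stat3Δ/Δ pools 1 to 3, and 0.21, -0.091 and -0.14 in control pools 1 to 3, so that Stat3Δ/Δ pool 3 lay inside the control range. The alpha and mu classes together held 10 genes, 9 of them below 0, with a median of -0.41, and -0.51 within the shared number. By the suffix of their names, 4 of the 28 probe sets of the family, 2 for Gstm1 and 1 each for Gstm3 and Gsto1, may share probes with other transcripts, so that the values of these genes are uncertain.

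Gsta2, an alpha-class transferase, had deposited signals of 1382, 1132 and 1750 in Stat3Δ/Δ pools 1 to 3 and 3438, 2404 and 3806 in control pools 1 to 3. On the log2 scale it had 10.45, 10.20 and 10.87 in Stat3Δ/Δ cells, against 11.80, 11.27 and 11.91 in control cells. All 3 Stat3Δ/Δ pools lay below the lowest control pool, and the level was 2.22-fold lower in Stat3Δ/Δ cells. The log2 fold change was -1.15 (SE 0.30, limma adjusted p = 0.469), between -1.35 and -1.0 with any single pool left out, and -1.59 within the shared number. The other alpha-class genes, Gsta3 and Gsta4, gave -0.21 and -0.33 and overlapped between the groups. The dimmer probe set of Gsta3, described here after its values were seen, had 9.83, 9.93 and 10.28 in Stat3Δ/Δ cells, against 10.65, 10.68 and 10.72 in control cells, which did not overlap (log2 fold change -0.67, SE 0.25, limma adjusted p = 0.544).

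Gstm1, a mu-class transferase with 4 probe sets, had deposited signals of 14589, 21016 and 30488 in Stat3Δ/Δ pools 1 to 3 by its brightest, against 32042, 33342 and 43491 in control pools 1 to 3. The groups did not overlap, though on the log2 scale Stat3Δ/Δ pool 3, at 14.85, was only just below control pool 1, at 14.86. The log2 fold change was -0.71 (SE 0.32, limma adjusted p = 0.602), and -1.27 within the shared number. The other 3 probe sets gave -0.52, -1.01 and -0.35, so that all 4 had the same sign. The -1.01 belongs to a probe set that may share probes with other transcripts, as the brightest may too. Gstm2, chosen after its values were seen, gave -0.68, while Gstm5 was the mu-class gene above 0, at 0.22.

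Gstk1, the kappa-class transferase of mitochondria and peroxisomes, had 13.35, 13.33 and 13.95 in Stat3Δ/Δ cells, against 14.34, 14.07 and 13.99 in control cells. Stat3Δ/Δ pool 3 lay just below the lowest control pool, and the log2 fold change was -0.59 (SE 0.28, limma adjusted p = 0.624). In deposited signals Stat3Δ/Δ pool 3, at 16318.8, lay above control pool 3, at 15551.5. Gstp1, the pi-class transferase and the brightest of the family, had 14.97, 15.18 and 15.48 in Stat3Δ/Δ cells, against 15.75, 15.53 and 15.55 in control cells, and a log2 fold change of -0.40 (SE 0.25, limma adjusted p = 0.714). The groups did not overlap, by a margin narrower than the range within either. In deposited signals they did, with 48249.7 in Stat3Δ/Δ pool 3 against 47782.3 in control pool 3. The 4 cytosolic genes above 0 were Gstt1 (0.028), Gstm5, Gstz1 (0.38), a zeta-class enzyme of tyrosine breakdown, and Gstcd, and all 4 overlapped.

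**Figure D2:**
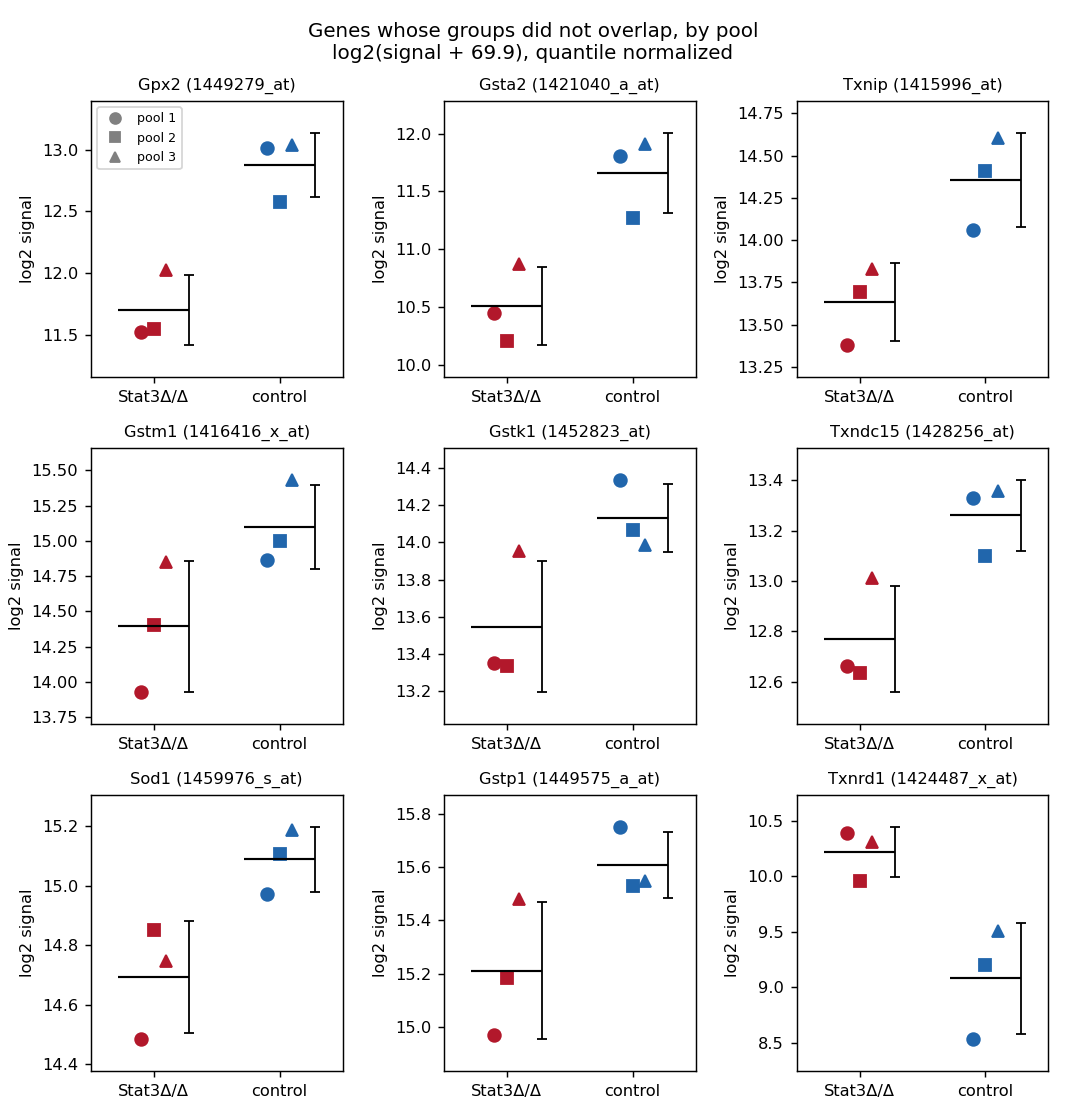
Log2(signal + 69.9) after quantile normalization in each pool (points; circle, square and triangle for pools 1 to 3) for the 8 genes whose brightest probe set does not overlap between 3 Stat3Δ/Δ (left, red) and 3 control (right, blue) arrays, and for the dimmest Txnrd1 probe set; horizontal lines are group means and error bars are 1 SD. The 8 genes lie lower in all Stat3Δ/Δ pools, with Gpx2 at 11.52 to 12.02 against 12.57 to 13.04 in control cells, and the Txnrd1 probe set lies higher, at 9.96 to 10.39 against 8.54 to 9.51; axes differ between panels.

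The microsomal transferases, which are membrane proteins, had a median of -0.0015 over 3 genes. Mgst1 was the brightest of the 3, with 16.24, 15.95 and 16.19 in Stat3Δ/Δ cells, against 16.18, 16.06 and 15.64 in control cells. Its log2 fold change was 0.17 (SE 0.26, limma adjusted p = 0.892), and -0.063 with arrays centred on their medians. Mgst2 and Mgst3 gave -0.29 and -0.0015, and all 3 overlapped.

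Glutathione peroxidases use glutathione to reduce hydrogen peroxide and lipid peroxides. Of 8 genes, 6 were below 0, with a median of -0.12, which was between -0.43 and 0.0058 with any single pool left out and above 0 only without control pool 1. Gpx2 was the farthest from 0. Gpx2 had deposited signals of 2937, 2961 and 4036 in Stat3Δ/Δ pools 1 to 3, against 8471, 6031 and 8199 in control pools 1 to 3, and log2 signals of 11.52, 11.54 and 12.02 in Stat3Δ/Δ cells, against 13.01, 12.57 and 13.04 in control cells. Every Stat3Δ/Δ pool lay below every control pool by more than the range within either group, and the level was 2.26-fold lower in Stat3Δ/Δ cells. The log2 fold change was -1.18 (SE 0.27, limma adjusted p = 0.456), between -1.34 and -1.09 with any single pool left out, and -1.5 within the shared number. This was the widest difference among the 63 genes.

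Gpx1, the ubiquitous cytosolic enzyme and the brightest of the family, had 15.33, 15.49 and 15.68 in Stat3Δ/Δ cells, against 15.65, 15.47 and 15.75 in control cells, with a log2 fold change of -0.12 (SE 0.24, limma adjusted p = 0.919). The groups overlapped. For Gpx4, the phospholipid hydroperoxidase, described after its values were seen, 1 control pool stood away from the rest. Gpx4 had 15.06, 15.23 and 15.31 in Stat3Δ/Δ cells, against 15.74, 15.76 and 14.46 in control cells, so that control pool 3 was the lowest array and the other two control pools the highest. Its log2 fold change was -0.12 over all arrays and 0.68 within the shared number, whose control is that pool. The remaining peroxidases, Gpx3, Gpx5, Gpx6, Gpx7 and Gpx8, lay between -0.76 for Gpx5 and 0.078 for Gpx8, and all overlapped. Gpx5 was dim, with deposited signals of 60.2 to 344.3, and its value was between -1.20 and -0.32 with any single pool left out. Gpx6 had a signal above 69.9 on only 3 arrays.

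Peroxiredoxins reduce peroxides with thioredoxin as their partner, and sulfiredoxin, Srxn1, restores those that have been overoxidized. The 3 peroxiredoxins measured, Prdx2, Prdx3 and Prdx4, were all below 0, with a median of -0.29, and between -0.49 and -0.10 with any single pool left out. Prdx1, Prdx5 and Prdx6 were not analysed here. Prdx2 had 13.60, 13.98 and 14.38 in Stat3Δ/Δ cells, against 14.37, 14.47 and 14.01 in control cells, which overlapped (log2 fold change -0.29, SE 0.29, limma adjusted p = 0.816). Srxn1, whose brightest probe set may share probes with other transcripts, had 13.37, 12.54 and 12.91 in Stat3Δ/Δ cells, against 13.50, 13.18 and 12.50 in control cells. Its log2 fold change of -0.12 (SE 0.35) became 0.46 within the shared number, and its 3 dimmer probe sets gave 0.048, 0.44 and -0.19.

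Superoxide dismutases turn superoxide into hydrogen peroxide, Sod1 in the cytosol, Sod2 in mitochondria and Sod3 outside the cell. Sod1 had 14.49, 14.85 and 14.75 in Stat3Δ/Δ cells by its brightest probe set, against 14.97, 15.11 and 15.19 in control cells, without overlap (log2 fold change -0.39, SE 0.24, limma adjusted p = 0.704). That probe set may share probes with other transcripts, but the next brightest, which has no such suffix, also separated the groups and also gave -0.39. The 3 dimmer ones gave 0.36, 0.33 and -1.0, and the -1.0 comes from a probe set whose signal was above 69.9 on only 2 arrays. Sod2 and Sod3 gave -0.20 and -0.16 and overlapped. The median of the 3 genes was -0.20, between -0.38 and -0.13 with any single pool left out, and 0.023 within the shared number.

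Catalase, Cat, which breaks down hydrogen peroxide in peroxisomes, had 15.55, 15.73 and 15.33 in Stat3Δ/Δ cells, against 15.46, 15.17 and 15.57 in control cells. Its log2 fold change was 0.14 (SE 0.25, limma adjusted p = 0.914), or -0.13 with arrays centred on their medians, and the groups overlapped. Nqo1, a quinone reductase and a classical NRF2 target, had 9.57, 9.36 and 9.84 in Stat3Δ/Δ cells, against 9.34, 9.99 and 10.32 in control cells, with a log2 fold change of -0.29 (SE 0.32, limma adjusted p = 0.833). The groups overlapped here as well, since control pool 1 was the lowest array.

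Thioredoxin, Txn1 in the cytosol and Txn2 in mitochondria, reduces protein disulfides and is itself reduced by the thioredoxin reductases Txnrd1, Txnrd2 and Txnrd3, while Txnip binds thioredoxin and inhibits it. Of these 6 genes 5 were below 0, with a median of -0.26, between -0.44 and -0.12 with any single pool left out, and -0.088 within the shared number. Txnip, which is also induced by glucose, had 13.38, 13.69 and 13.83 in Stat3Δ/Δ pools 1 to 3, against 14.06, 14.41 and 14.60 in control pools 1 to 3. The groups did not overlap, and the level was 1.65-fold lower in Stat3Δ/Δ cells, with a log2 fold change of -0.72 (SE 0.27, limma adjusted p = 0.546) and -1.07 within the shared number. Its other probe set overlapped and gave -0.33. Txn1 had 15.88, 15.78 and 15.62 in Stat3Δ/Δ cells, against 15.70, 15.74 and 15.87 in control cells. The log2 fold change of Txn1 was -0.013 (SE 0.24, limma adjusted p = 0.994), which was close to 0 beside its error.

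Txnrd1, described after its values were seen, held the only probe set of the 119 that was higher without the FDR over all 6 arrays. By its brightest probe set Txnrd1 had 14.51, 13.58 and 13.89 in Stat3Δ/Δ cells, against 13.90, 13.97 and 13.44 in control cells, and a log2 fold change of 0.23 with overlap. The dimmest, which may share probes with other transcripts, had 10.39, 9.96 and 10.31 in Stat3Δ/Δ cells, against 8.54, 9.20 and 9.51 in control cells, without overlap. That is a log2 fold change of 1.14 (SE 0.32, limma adjusted p = 0.485), 0.66 within the shared number, and the third probe set gave 0.87. All 3 had the same sign and differed in size, and which transcript ends they read was not analysed here. Txnrd2 and Txnrd3 gave -0.39 and -0.47 by their brightest probe sets and overlapped.

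**Figure D3:**
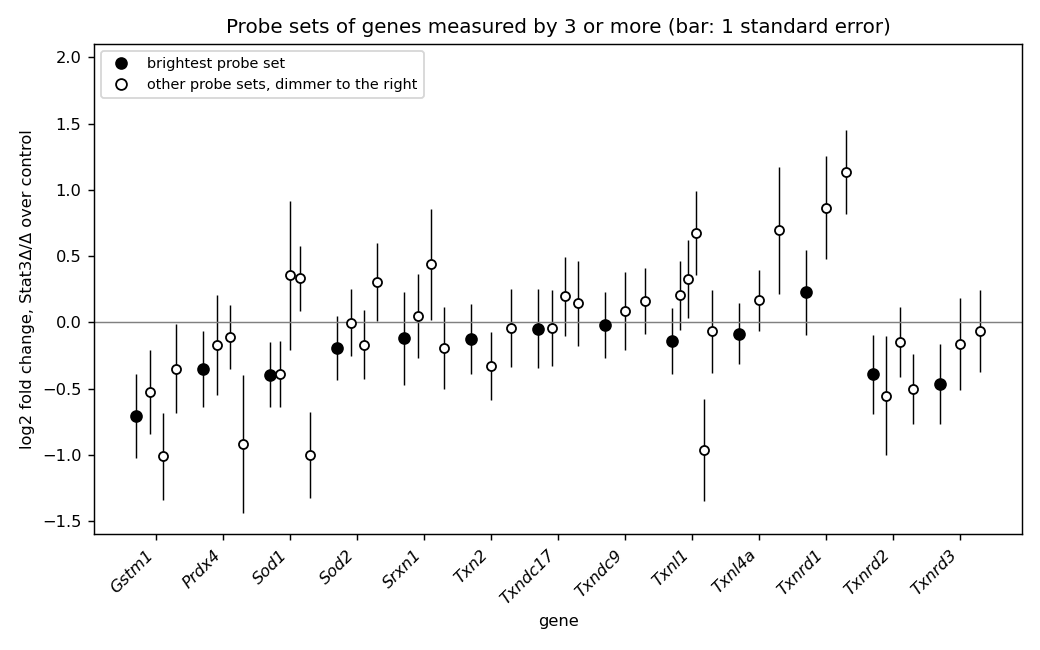
Log2 fold change of Stat3Δ/Δ over control (vertical axis) of every probe set of the 13 genes measured by 3 or more; filled circles are the brightest probe set of a gene, open circles the others, dimmer to the right, and bars are 1 standard error. All 4 probe sets of Gstm1 lie below 0 and all 3 of Txnrd1 above, while those of Sod1 lie between -1.0 and 0.36 and those of Txnl1 between -0.96 and 0.68.

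The 12 thioredoxin-like genes, most of them named for a thioredoxin domain, had a median of -0.066, with 9 below 0, which is close to that of all genes. Among them Txndc15, a membrane protein known from human ciliopathy, had 12.66, 12.63 and 13.01 in Stat3Δ/Δ cells, against 13.33, 13.10 and 13.36 in control cells, without overlap (log2 fold change -0.49, SE 0.25, limma adjusted p = 0.645). Txnl4a and Txnl4b, which are splicing proteins, gave -0.085 and -0.55. The 6 probe sets of Txnl1, a thioredoxin-like protein of the proteasome, disagreed, with a brightest value of -0.14 and dimmer ones between -0.96 and 0.68. Gstt4 and Txndc2 had signals above 69.9 on fewer than 3 arrays, so their values hold little information.

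Other genes of the pathway were taken from 7 lists, in which none passed the FDR. Of 16 NRF2 target genes outside the families above, 14 were below 0, with a median of -0.31; 4 were lower without the FDR (25.0%, beside 5.54% of all genes) and none was higher. Aldh3a1, an aldehyde dehydrogenase, had 10.53, 10.75 and 11.48 in Stat3Δ/Δ cells, against 12.83, 12.14 and 12.81 in control cells, without overlap (log2 fold change -1.67, SE 0.34, limma adjusted p = 0.448). Cbr3, a carbonyl reductase, gave -1.0 and Aldh1a1, a retinal dehydrogenase that is also on the list of airway secretory markers, gave -0.67, both without overlap. The fourth was Ces1g, a carboxylesterase, at -1.05 with overlap, and Hmox1, heme oxygenase, gave 0.14.

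The 10 NRF2 regulators had a median of 0.14, with 4 below 0, but -0.048 with arrays centred on their medians. Nfe2l2, the gene of NRF2 itself, and Sqstm1, an autophagy receptor that binds KEAP1, were chosen after their values were seen. They were the 2 of these 10 that lay above all control arrays after normalization, beside 4.23% of all genes. In deposited signals both overlapped. Nfe2l2 had 31500.8 in Stat3Δ/Δ pool 1 and 32379.9 in control pool 1, and Sqstm1 had 59675.5 in Stat3Δ/Δ pool 2 and 60296.4 in control pool 2. Nfe2l2 had 15.08, 15.06 and 15.06 in Stat3Δ/Δ cells, against 14.88, 14.69 and 14.85 in control cells, with a log2 fold change of 0.26 (SE 0.23, limma adjusted p = 0.787), and 0.033 with arrays centred on their medians. Sqstm1 gave 0.33, and 0.068 so centred. Rbx1, a ubiquitin ligase subunit, met the rule without the FDR at 0.93 with overlap, but its deposited signals, 76.0 to 239.8 in Stat3Δ/Δ pools and 14.3 to 92.4 in control pools, were above 69.9 on only 4 arrays. Keap1, the inhibitor that marks NRF2 for destruction, gave -0.42 with overlap. Of 13 genes that supply NADPH 11 were below 0, with a median of -0.28, and Aldh1l1, a folate enzyme, was lower without the FDR at -1.03. Pgd and Tkt, of the pentose phosphate pathway, gave -0.64 and -0.54. Of 19 genes of glutathione turnover and transport and glutaredoxins 14 were below 0, with a median of -0.22 and -0.028 within the shared number. Ggt6, a member of the gamma-glutamyltransferase family, and Slc25a39, a mitochondrial glutathione carrier, were lower without the FDR at -0.84 and -0.61, and Oplah, the 5-oxoprolinase of the glutathione cycle, gave -0.75.

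Selenoprotein synthesis and methionine sulfoxide repair had a median of -0.066 over 18 genes, with Msrb3, a methionine sulfoxide reductase, higher without the FDR at 0.84. In 4 of the 18 (22.2%, beside 4.23% of all genes) every Stat3Δ/Δ array lay above every control array, and in 1 below. The 4 were Msrb3 with Selenof (0.65), Selenok (0.43) and Msrb1 (0.19), the last of which gave -0.018 with arrays centred on their medians. In deposited signals Msrb1 overlapped, with 13604.8 in Stat3Δ/Δ pool 1 against 15280.6 in control pool 1. Selenom, like Selenof a selenoprotein of the endoplasmic reticulum, gave -0.65 with overlap. Other peroxide and metal defence genes had a median of -0.15 over 15 genes, and none passed the rule without the FDR; the 3 of smallest p were Hmox2 (-0.37), Pon1 (-0.45) and Sesn1 (-0.43). NADPH oxidases and other oxidant sources had a median of 0.24, with 4 of 14 below 0. Subunits of the phagocyte oxidase, Ncf1, Cybb and Ncf4, gave 0.66, 0.58 and 0.54. None of these 14 passed the rule without the FDR, and the median was -0.053 within the shared number.

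Markers of other cells, none of which passed the FDR, were set beside these values. Airway secretory markers had a median log2 fold change of -0.81, with 9 of 10 below 0 and 5 lower without the FDR, and their summed signal was 367645 to 513922 in Stat3Δ/Δ pools and 516736 to 617951 in control pools. On single arrays their median was -1.13, -0.91 and -0.32 in Stat3Δ/Δ pools 1 to 3. The order of these pools was the same over all genes, at -0.13, -0.11 and -0.026. Their most abundant member, Scgb1a1, gave 0.012. Ciliated cell markers had a median of -0.68 with 11 of 13 below 0, and summed signals of 55477 to 80610 in Stat3Δ/Δ pools and 70275 to 114824 in control pools. Fibroblast markers had a median of -1.27 with 9 of 12 below 0, mesothelial markers -0.64 with 7 of 7 below 0, and endothelial markers -0.29 with 6 of 8 below 0. Within the shared number these medians were -0.17, -0.86 and 0.0090 in the same order. Fibroblast signals summed to 9353 to 21716 in Stat3Δ/Δ pools and 25632 to 50836 in control pools. Lower without the FDR were 6 of 13 ciliated and 6 of 12 fibroblast markers, beside 5.54% of all genes. By the same rule 3 of 7 mesothelial and 1 of 8 endothelial markers were lower, and no marker of these cells was higher. No marker on these lists had a signal of 0 on any array, since the lowest signal deposited was 0.3.

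Alveolar macrophage markers had a median of 0.52, with all 10 above 0 and 3 higher without the FDR (30.0%, beside 2.15% of all genes). Their summed signal was 169691 to 215298 in Stat3Δ/Δ pools and 125343 to 148226 in control pools. Neutrophil markers had a median of 0.48 with 6 of 9 above 0 and 4 higher without the FDR (44.4%, beside 2.15% of all genes). Type II markers, by contrast, had a median of -0.038, with 7 of 11 below 0 and the sums overlapping, at 756170 to 1007940 in Stat3Δ/Δ pools and 904243 to 992269 in control pools. Medians were 0.044 for type I markers, 0.016 for lymphocyte markers and -0.50 for red cell markers, with 4 of 9, 4 of 9 and 4 of 6 below 0. Without the FDR 1 type II marker was lower (9.09%, beside 5.54% of all genes). By the same rule 1 type I and 1 lymphocyte marker were higher (11.1% each, beside 2.15% of all genes). The part of these other cells in the values of the glutathione and antioxidant genes was not tested.

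**Figure D4:**
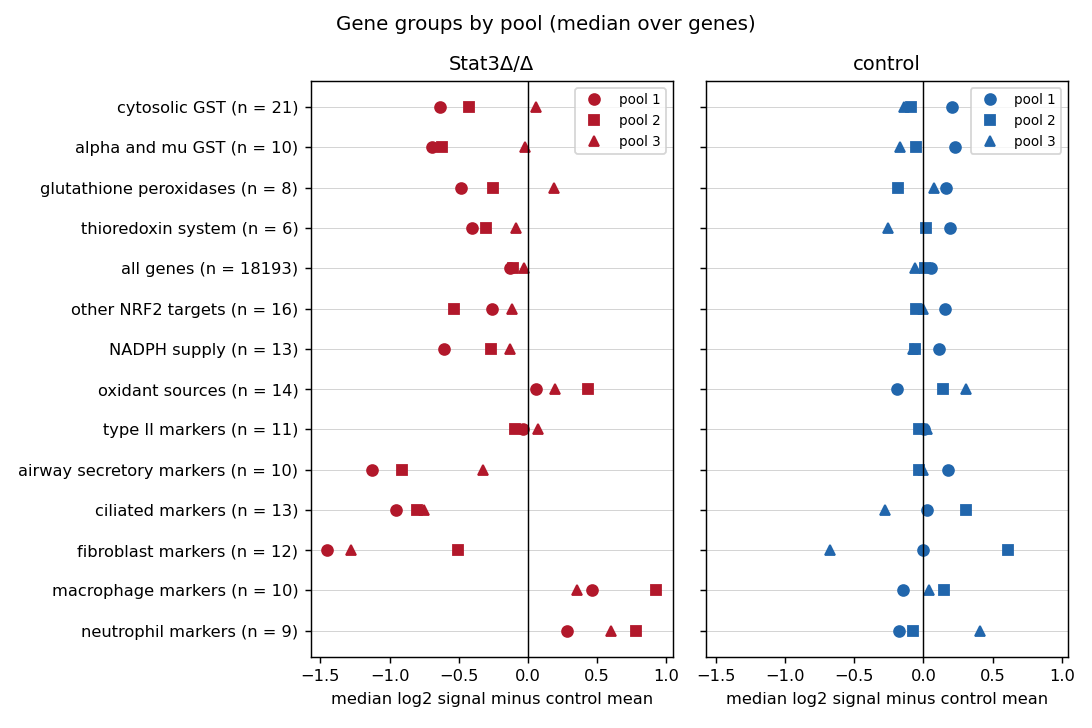
Median over the genes of a group of the log2 signal minus each gene's control mean (horizontal axis), for single Stat3Δ/Δ pools (left, red) and control pools (right, blue); circle, square and triangle are pools 1 to 3 and n is the number of genes. Cytosolic transferases (-0.64, -0.42 and 0.059) and airway secretory markers (-1.13, -0.91 and -0.32) lie lowest in Stat3Δ/Δ pool 1, as do all genes (-0.13, -0.11 and -0.026), while type II markers lie near 0 and macrophage markers above it.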

How the data were processed

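RNA of alveolar type II cells from 3 Stat3Δ/Δ pools and 3 control pools, each of 3 mice, was measured on 6 MOE430 arrays. The deposited values are linear signal intensities, which the authors made with MAS5 and scaled to a trimmed mean of 1500 on each array; the RMA values behind the published tests were not used here. Of 45101 probe sets, 64 controls were left out. Signals were raised by 69.9 (their 20th percentile), put on the log2 scale and quantile normalized between arrays. The only term in limma (3.58.1, under R 4.3.3) was the group, with Benjamini-Hochberg adjustment over 45037 probe sets. Calls needed p at most 0.05, FDR at most 10% and fold at least 1.5, and were also made without the FDR for every probe set, a step the study's methods keep for mRNAs that changed in several probe sets. The calling code was run on simulated data with equal variance for every probe set and no value added before taking logs. The differences put in were larger than that of any member probe set. The run thus cannot show how many changes of the size seen here were missed.

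Probe sets were named from the platform annotation: 34945 name 1 gene, 932 several and 9160 none. A gene was represented by its probe set of highest mean. The symbols of all 119 member probe sets, which name 63 genes, are current in RefSeq. One label gives control pools the genotype of the deleted line, so groups were taken from titles and source names. Values per pool are given for Gclc, Gclm, Gss, Gsr, Cat, Nqo1 and Srxn1, for the brightest gene of each family, and for member genes that do not overlap between groups; from each pathway list up to 3 genes of smallest p are named, and other genes were picked with their values in view. The members and lists were chosen with earlier results of these data known. Alternatives changed the pseudocount, normalization, low-signal filter, test, variance model, array weights, blocks, thresholds, probe set and arrays left out. Scripts used scipy 1.17.1, numpy 2.4.6, pandas 2.3.3 and, for figures, matplotlib 3.10.9 under Python 3.11.15.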

Additional observations from a re-analysis of the deposited data

How the results depend on the processing

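With 3 arrays against 3, the precision is limited, and no glutathione or antioxidant probe set passed the FDR under any of the alternatives run. The count of lower probe sets without the FDR, 7, was 12 with array weights, 2 at p at most 0.01, and 4 to 16 with single pools left out. The count of higher ones, 1, was 2 with array weights, with eBayes trend and robust, without normalization between arrays and with the pseudocount at the median signal, and 1 to 3 with single pools left out. The median over the 63 genes, -0.16, was -0.35 with arrays centred on their medians, where that of all genes was -0.18, and -0.32 to -0.063 with single pools left out. The replicate block gave 6 lower, 1 higher and a median of -0.16. Same-numbered pools had correlations of -0.084, -0.0088 and -0.24 in their deviations, and differently numbered ones -0.14 to 0.19. Deviations from a mean of 3 pools are tied together, so these values cannot settle whether the numbers pair the pools. The methods' t-test called 6 lower, 1 higher and, after Benjamini-Hochberg, 0. Of 19 named genes 14 kept their sign throughout. Among the 19 are the 8 whose groups do not overlap, and leaving pools out cannot turn the sign of those. With arrays centred on their medians Cat and Gsr were at -0.13 and Mgst1 at -0.063. With single pools left out Gsr was -0.063 to 0.12, turning to -0.045 when Stat3Δ/Δ pool 2 was out, -0.063 for control pool 1 and -0.0092 for control pool 3. Srxn1 was 0.46 within the shared title number and with it as a fixed block, 0.044 as the mean of its probe sets and -0.40 to 0.10 with single pools left out, turning to 0.080 when Stat3Δ/Δ pool 2 was out and 0.10 for control pool 1. Txn1 was 0.014 with array weights and -0.073 to 0.055 with single pools left out, turning to 0.055 when Stat3Δ/Δ pool 3 was out and 0.037 for control pool 3. The cause was not tested.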
